A study of Rattus norvegicus with 24 samples.

Results

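The semaphorins, their plexin receptors and the neuropilin co-receptors were described here in injured and uninjured rat brain 3 months after lateral fluid-percussion. Members were taken by gene name, as every deposited locus named for a class 3 to 7 semaphorin, a class A to D plexin or a neuropilin, and 29 of 26641 named loci matched. They were 20 semaphorins, 7 plexins and 2 neuropilins, each with 1 locus of its name. Plexin A1 and plexin A4 were not matched by name and were not analysed here.

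Semaphorins are secreted, transmembrane or membrane-anchored guidance proteins that steer growing axons and later shape synapses, vessels and immune cells. Class 3 semaphorins are secreted and mostly bind a neuropilin that pairs with a plexin, whereas classes 4 to 7 stay at the membrane and mostly bind plexins directly. Plexins carry the signal inward by acting on small GTPases and the cytoskeleton.

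The libraries came from adult male Sprague-Dawley rats that received a traumatic brain injury (TBI) by lateral fluid-percussion, a pressure pulse on the exposed dura, or a sham operation with anaesthesia and surgery but no impact. The perilesional cortex, next to the lesion, and the ipsilateral thalamus, on the injured side and connected to that cortex, were taken from the same 12 rats, 6 TBI and 6 sham, which gave 24 libraries of polyadenylated RNA. According to the methods, the TBI rats were picked for chronic inflammation around the lesion on imaging, so they stand for that subset of injured animals. Values are normalized counts, the fragment counts per locus divided by a size factor per library. Recovered depth ran from 30568903 to 54608897 fragments per library. All 29 members passed the filter of a mean of at least 10 normalized counts. Member means over the 24 libraries ran from 197 to 11263 normalized counts, which are not per length and so do not rank the genes. The spread between rats of 1 group, as the coefficient of variation, had a median over members of 9.43% in sham cortex to 11.4% in TBI thalamus.

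The labelled regions were separated by thalamus identity genes. The sum of 5 such genes (Tcf7l2, Prkcd, Gbx2, Lef1 and Rgs16) ranged from 38078 to 79213 in thalamus and from 2097 to 3383 in cortex. The thalamus libraries of 3 rats carried choroid plexus RNA. The summed level of 7 choroid plexus markers was 261683 in TBI rat 45, 107768 in sham rat 50 and 68067 in sham rat 34, and at most 1821 in the other thalamus libraries. In cortex the sum was 32413 in TBI rat 45, 23641 in sham rat 26 and 11247 in sham rat 34, and at most 2642 in the others. TBI rat 45 also had the highest fibroblast and meningeal sum in thalamus, 49834, where the other TBI rats had at most 3566. Members that turn on this library are given with and without it. No marker in these lists was at 0 in a whole group.

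Of the 29 members, 20 differed between TBI and sham rats in at least 1 region, at a Benjamini-Hochberg adjusted p under 0.05 in limma over all named loci. The share of all loci called in at least 1 region was not computed, so no background stands beside this count. In perilesional cortex 6 were higher and 6 were lower after TBI, 20.7% of members each way, where 14.3% of all 15493 loci tested were higher and 14.9% were lower. In thalamus 7 were higher and 8 were lower, 24.1% and 27.6% of members, where 14.5% and 20.9% of 15564 loci were. The median log2 change over members was 0.09 in cortex and 0.06 in thalamus, beside -0.01 and -0.02 over all loci tested. The TBI and sham values did not overlap for 5 members in cortex and 7 in thalamus, 17.2% and 24.1%, against 12.5% and 18.2% of all loci. Of all loci called in thalamus 59.0% were lower, and 45.7% with TMM scaling, under which 8 members were higher and 7 lower. The shares of members stood above those of all loci in both directions in each region, which was not tested. All loci tested include genes of lower level than any member. With a mean of at least 50 in place of 10, 14.5% and 17.0% of all loci were higher and lower in cortex, beside 7 and 6 members. In thalamus 15.2% and 23.8% were, beside 7 and 8 members. Leaving out the 6 libraries with a summed choroid plexus level over 10000, a choice made after seeing the data, gave 4 members higher and 3 lower in cortex, where 7.90% and 6.06% of all loci were, and 7 and 6 in thalamus, where 12.0% and 15.3% were. Without the rats of the 2 highest thalamic sums, TBI rat 45 and sham rat 50, the counts were 4 and 5 in cortex, beside 10.6% and 9.82% of all loci, and 6 and 6 in thalamus, beside 11.7% and 16.2%.

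Among the 9 receptors, 5 rose and 1 fell in each region, 55.6% and 11.1% of them. Of all loci, 14.3% rose and 14.9% fell in cortex, and 14.5% and 20.9% in thalamus. The receptors Plxnb1, Plxnb2 and Plxnb3 rose in both regions. The calls of Plxna3 and Plxnb1 in cortex and of Plxnd1 in thalamus were lost in several alternatives given below. Among the 13 membrane-bound semaphorins of classes 4 to 7, 0 rose, 2 fell in cortex and 7 fell in thalamus in the main limma fit. The counts by edgeR were the same. Some rises were called in alternatives. In cortex these were Sema4d (2 alternatives, adjusted p down to 0.0141), Sema6d (3, down to 0.0289), Sema6c (1, 0.0423) and Sema5b (1, 0.0456). In thalamus they were Sema4a with TMM scaling (adjusted p = 0.0335) and Sema4d without sham rat 26 (adjusted p = 0.0402). The falls were 15.4% in cortex, near the 14.9% of all loci that fell there, and 53.8% in thalamus, beside 20.9%. Of the 7 secreted class 3 semaphorins, 1 rose and 3 fell in cortex, 14.3% and 42.9%, beside 14.3% and 14.9% of all loci. In thalamus 2 rose and 0 fell, 28.6% and 0%, beside 14.5% and 20.9%. There edgeR gave the same counts, and 0 were lower at an unadjusted p under 0.05. The difference between ligands and receptors was not tested. At an unadjusted p under 0.05, 3 of the 13 were higher in cortex and 1 in thalamus. The 7 members called in the same direction in both regions were Sema3b and the 3 B plexins, which rose, and Sema7a, Sema5a and Plxna2, which fell. The share of all loci called in the same direction in both regions was not computed, so this count has no background beside it. In bulk tissue, fewer cells of a type and less RNA per cell cannot be told apart.

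**Figure D1:**
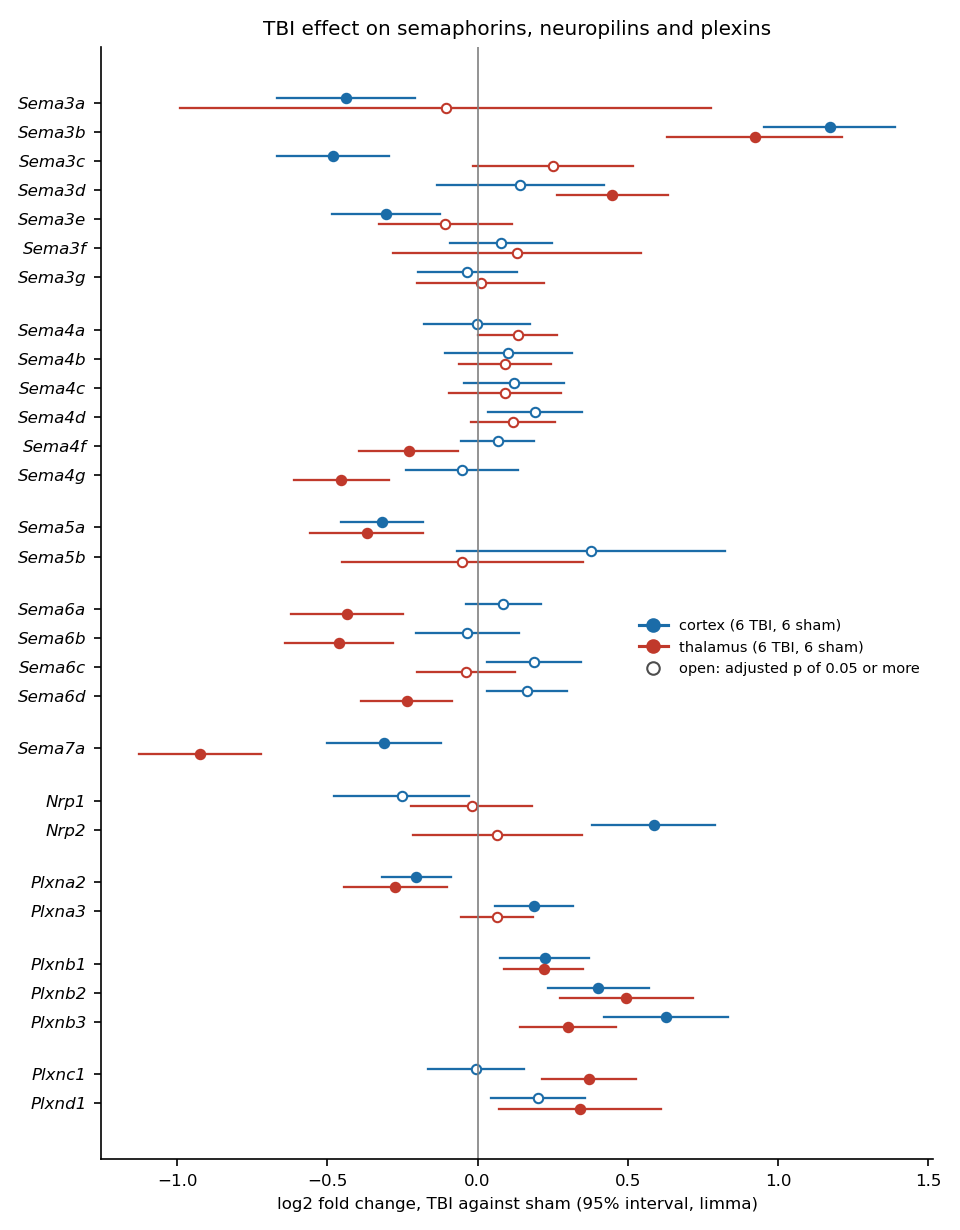
Log2 fold change of TBI against sham (horizontal axis) for each of the 29 members, by class, in cortex (blue) and thalamus (red), with 95% intervals from limma over 6 TBI and 6 sham rats. Filled points passed an adjusted p of 0.05. The 3 B plexins lie right of 0 in both regions, and Sema7a lies farthest left, at -0.92 in thalamus.

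Before injury effects are described, the sham rats show where each gene is expressed. Between sham thalamus and sham cortex, 11 members were higher in thalamus and 9 were higher in cortex, 37.9% and 31.0% of members, where 33.5% and 27.9% of 15678 loci were. Sema3a, a secreted repellent that acts through neuropilin-1 and is found in perineuronal nets, had from 1696 to 2575 normalized counts in sham cortex and from 26.7 to 142 in sham thalamus, a log2 ratio of -5.31 ± 0.32 (SE, n = 6 and 6). Sema3c was lower in thalamus by a log2 ratio of -2.49, and Plxnd1, the receptor that binds Sema3e without a neuropilin, by -1.71. Sema4f, Plxna2 and Sema3f were lower in thalamus at log2 ratios of -1.05, -1.04 and -0.99.

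In the other direction, Sema4g was higher in sham thalamus by a log2 ratio of 2.26 ± 0.08 (SE). Its sham values ran from 660.2 to 783 normalized counts in cortex and from 3188 to 3782 in thalamus. Sema6a (1.41), Plxnb3 (1.32), Sema6d (1.29), Sema5a (1.14) and Sema4d (1.12) followed in log2 ratio, and for all of these the 6 thalamus and 6 cortex values did not overlap. Oligodendrocyte markers were also higher in sham thalamus, with a summed level from 409163 to 561787 against 128474 to 172317 in sham cortex. Their part in these ratios was not tested. Nrp2 had a log2 ratio of 0.76 and Nrp1 of -0.37, so the neuropilins had opposite regional ratios. Sema7a did not pass the test between the regions, at a log2 ratio of -0.02 with a 95% interval from -0.22 to 0.18.

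**Figure D2:**
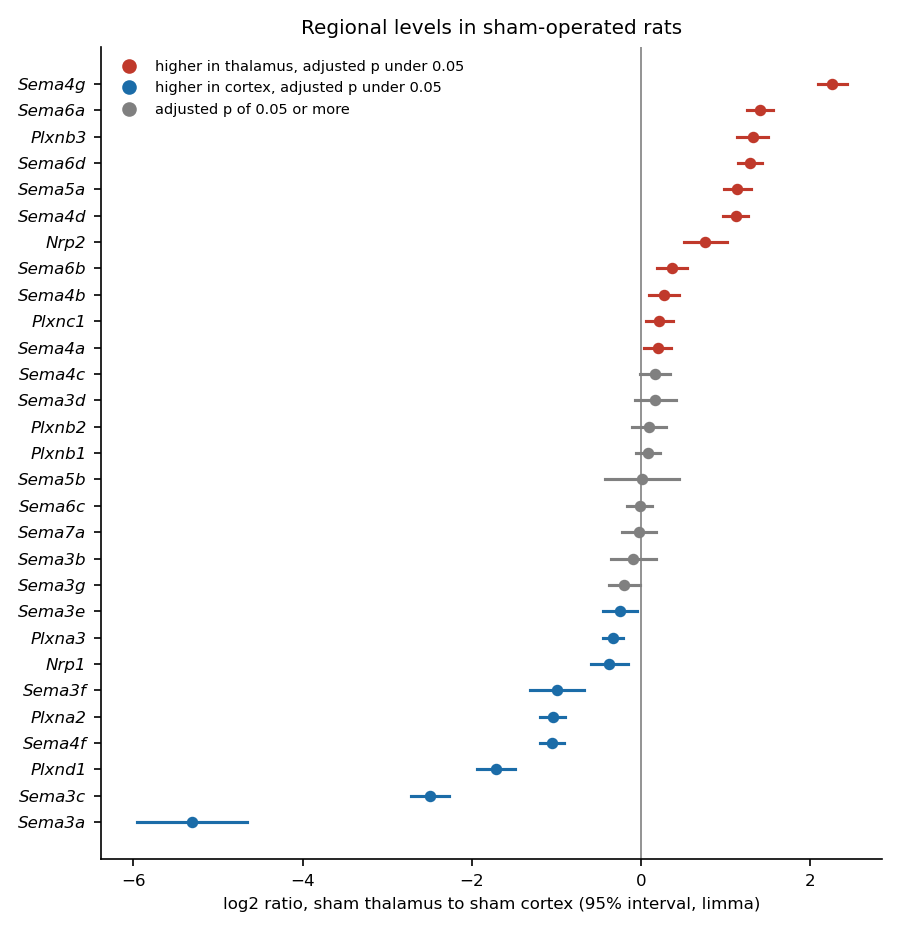
Log2 ratio of sham thalamus to sham cortex (horizontal axis) for the 29 members, ordered by the ratio, with 95% intervals from limma. Red marks members higher in thalamus, blue those higher in cortex and grey those that did not pass an adjusted p of 0.05. The ratios run from -5.31 for Sema3a to 2.26 for Sema4g.

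The largest fall was that of Sema7a in thalamus. Sema7a (chromosome 8, 62499076 to 62521844, in the coordinates of the deposited loci, Rnor_5.0) encodes the only semaphorin held by a GPI anchor, and it binds plexin C1 and beta1 integrins. In thalamus its lowest, median and highest values were 11842, 13035 and 15278 normalized counts in sham rats and 5818, 7168 and 8788 in TBI rats. All 6 TBI values lay below all 6 sham values. The log2 change was -0.92 ± 0.10 (SE, n = 6 and 6; adjusted p = 7.67e-06), a change of -47.3%. In cortex Sema7a fell less, from a lowest, median and highest value of 11708, 14243 and 14659 in sham rats to 8916, 11104 and 12861 in TBI rats, with 4 of the 6 TBI rats below every sham rat and a log2 change of -0.31 ± 0.09 (adjusted p = 0.0169). Without the 3 choroid plexus-rich cortex libraries that change was -0.21 (adjusted p = 0.165). The effect in thalamus exceeded that in cortex by -0.61 ± 0.14 on the log2 scale (adjusted p of the difference = 0.00792).

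Its receptor Plxnc1 (chromosome 7, 35912098 to 36063727), plexin C1, went the other way in thalamus. Plxnc1 had a lowest, median and highest value of 2155, 2494 and 2835 normalized counts in sham thalamus and 3059, 3105 and 3641 in TBI thalamus, with no overlap. Its log2 change there was 0.37 ± 0.07 (SE; adjusted p = 0.00142). In cortex the groups overlapped throughout, from 1993 to 2445 in sham rats, with a median of 2134, and from 1839 to 2513 in TBI rats, with a median of 2110.1, with a log2 change of -0.01 and a 95% interval from -0.17 to 0.15. The effects in the 2 regions differed by 0.38 ± 0.11 (adjusted p = 0.0345). That difference missed the threshold in 7 of the 12 fits that left out 1 rat, with an adjusted p of up to 0.0904. Itgb1, the gene of the beta1 integrin subunit, had a log2 change of 0.37 in thalamus (adjusted p = 0.00134).

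Class 6 semaphorins are transmembrane ligands of A plexins. In thalamus 3 of the 4 fell, 75%, beside 20.9% of all loci. In cortex 0 of 4 passed the main limma fit or edgeR, with 2 above sham at an unadjusted p under 0.05. Of all loci in cortex, 14.3% were higher and 14.9% were lower. Sema6a had a lowest, median and highest value of 3841, 4278 and 5364 normalized counts in sham thalamus and 2823, 3138 and 3851 in TBI thalamus. Only the highest TBI rat reached above the lowest sham rat. The log2 change of Sema6a was -0.43 ± 0.09 (adjusted p = 0.00159) in thalamus and 0.09 ± 0.06 (adjusted p = 0.296) in cortex. In cortex Sema6a values ran from 1453 to 1847 in sham rats, with a median of 1663, and from 1663 to 1853 in TBI rats, with a median of 1746.

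Sema6b (chromosome 9, 9923109 to 9938199) ran from 3211 to 3889.8 normalized counts in sham thalamus, with a median of 3397, and from 2056 to 3015 in TBI thalamus, with a median of 2576. The groups did not overlap, and the log2 change was -0.46 ± 0.08 (adjusted p = 0.00076). In cortex Sema6b ran from 2182 to 2962 in sham rats, with a median of 2759, and from 2316 to 3104 in TBI rats, with a median of 2542, with a log2 change of -0.03. Sema6d, a ligand of plexin A1 that also signals through Trem2 and Tyrobp in myeloid cells, ran from 6408 to 8432 in sham thalamus, with a median of 7203, and from 5524 to 6988 in TBI thalamus, with a median of 6196 and with 5 of the 6 TBI rats below every sham rat. Its log2 change was -0.24 ± 0.07 (adjusted p = 0.0172) in thalamus, and -0.24 (adjusted p = 0.0633) without the 3 choroid plexus-rich libraries there. In cortex Sema6d ran from 2668 to 3313 in sham rats, with a median of 2992, and from 3041 to 3592 in TBI rats, with a median of 3290.2, a log2 change of 0.17 (adjusted p = 0.0593). Sema6c did not pass in either region, at log2 changes of 0.19 in cortex (adjusted p = 0.068) and -0.04 in thalamus.

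The difference between regions was itself called for Sema6a (-0.52 ± 0.11, adjusted p = 0.00422), Sema6d (-0.40 ± 0.10, adjusted p = 0.0114) and Sema6b (-0.43 ± 0.12, adjusted p = 0.0328). The Sema6b difference missed the threshold in 7 of the 12 fits that left out 1 rat, with an adjusted p of up to 0.109. Without the 6 choroid plexus-rich libraries the differences of Sema6b (adjusted p = 0.191) and Sema6d (-0.43, adjusted p = 0.0511) were not called.

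Class 4 semaphorins are transmembrane ligands, several of which bind B plexins. In cortex 0 of 6 passed the main limma fit or edgeR, with 1 at an unadjusted p under 0.05. Of all loci in cortex, 14.3% were higher and 14.9% were lower. In thalamus Sema4g and Sema4f fell, 33.3% of the class, beside 20.9% of all loci. Sema4g (chromosome 1, 272181425 to 272195786), a transmembrane ligand that binds plexin B2, had a lowest, median and highest value of 3188, 3475 and 3782 normalized counts in sham thalamus and 2011, 2658 and 2811 in TBI thalamus. The groups did not overlap, and the log2 change was -0.45 ± 0.07 (adjusted p = 0.000322). In cortex Sema4g ran from 660.2 to 783 in sham rats, with a median of 719.7, and from 586 to 898 in TBI rats, with a median of 676, with a log2 change of -0.05. The difference between regions, -0.40 ± 0.12, was called (adjusted p = 0.0377). It missed the threshold in 7 of the 12 fits that left out 1 rat, with an adjusted p of up to 0.0953, and without a filter on low values. It also missed it without the choroid plexus-rich rats and without the choroid plexus-rich libraries. Over all alternatives the adjusted p ran up to 0.257.

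Sema4f had a log2 change of -0.23 ± 0.08 (adjusted p = 0.0307) in thalamus, with values from 1297 to 1573 in sham and from 1057 to 1374 in TBI rats. That call was lost in 5 of the 12 fits that left out 1 rat, with an adjusted p of up to 0.0764, and with TMM scaling, where the change was -0.18 (adjusted p = 0.0817). It was also lost without the choroid plexus-rich rats and without the choroid plexus-rich libraries, with an adjusted p of up to 0.0886. The Sema4f difference between regions had an adjusted p of 0.0605, and of 0.0351 with the rat as a block. The other class 4 members did not pass in either region. Sema4d, which binds plexin B1 and is made by oligodendrocytes and immune cells, had the largest of their values in cortex, a log2 change of 0.19 with an adjusted p of 0.0638. The Sema4d locus overlaps Secisbp2, and how fragments of the overlap were counted is not given in the sources used here. Sema4a, Sema4b and Sema4c had log2 changes from 0.00 to 0.12 in cortex and from 0.09 to 0.13 in thalamus.

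**Figure D3:**
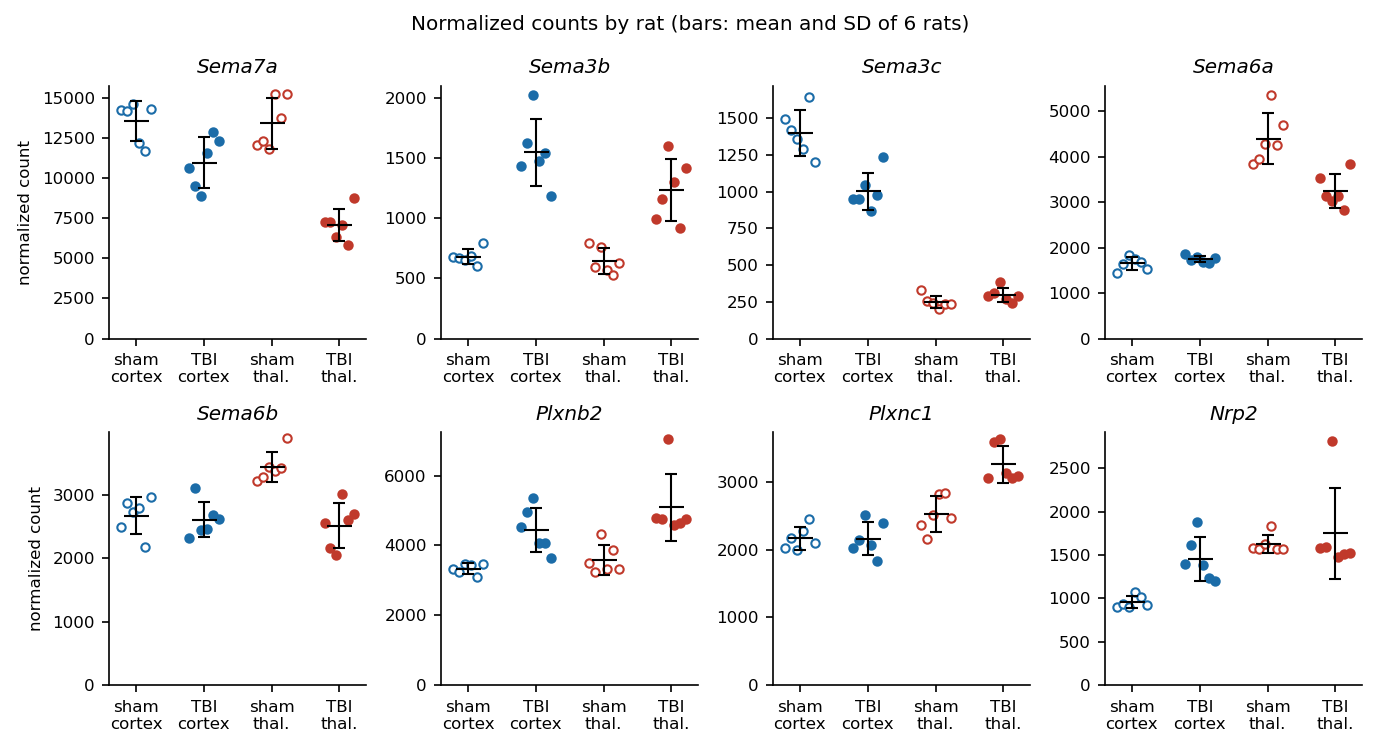
Normalized counts (vertical axis, from 0) of 8 members in each of the 24 libraries, open circles for sham and filled circles for TBI, blue for cortex and red for thalamus, with the mean and SD of 6 rats as black bars. Sema7a in TBI thalamus ran from 5818 to 8788, below all sham values, and the isolated high points of Nrp2 (2818) and Plxnb2 (7035) in TBI thalamus are rat 45.

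Sema5a (chromosome 2, 105049342 to 105480948) is a transmembrane semaphorin with thrombospondin repeats that binds plexin B3 and plexin A2. It was lower in TBI rats in both regions. In cortex its lowest, median and highest values were 2849.7, 3220.1 and 3668 normalized counts in sham rats and 2381, 2571 and 2764 in TBI rats, with no overlap and a log2 change of -0.32 ± 0.06 (adjusted p = 0.00215). In thalamus it ran from 5608 to 8305 in sham and from 4798 to 5896 in TBI rats, where only the lowest sham rat lay within the TBI range, and the log2 change was -0.37 ± 0.09 (adjusted p = 0.00482). The effects in the 2 regions differed by -0.05 with a 95% interval from -0.28 to 0.18. Sema5b did not pass in either region, and its interval in cortex was wide, from -0.07 to 0.82.

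Sema3b (chromosome 8, 115704696 to 115720994), a secreted ligand of neuropilins, had the largest rise of any member in both regions. In cortex its lowest, median and highest values were 599, 671 and 790.4 normalized counts in sham rats and 1183, 1508 and 2023 in TBI rats. In thalamus they were 528, 612 and 789 in sham rats and 918, 1230.0 and 1597 in TBI rats. The groups were apart in both regions. The log2 change was 1.17 ± 0.10 (adjusted p = 3.4e-06) in cortex, a rise of 125%, and 0.92 ± 0.14 (adjusted p = 0.000162) in thalamus, a rise of 89.5%. TBI rat 45 was the highest in both regions, and without it the log2 changes were 1.09 and 0.84. The difference between regions was -0.25 with an interval from -0.62 to 0.12.

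Among the other class 3 semaphorins, Sema3a, Sema3c and Sema3e were lower in cortex after TBI. Sema3a ran from 1696 to 2575 in sham and from 1250.0 to 1832 in TBI cortex, with a log2 change of -0.44 ± 0.11 (adjusted p = 0.00728). In the fit over all 24 libraries, which shares the wide spread of Sema3a in thalamus, the same change had an adjusted p of 0.322. Sema3e, the direct ligand of plexin D1, ran from 1064 to 1375 in sham and from 818 to 1149 in TBI cortex, with a log2 change of -0.30 ± 0.08 (adjusted p = 0.0145), and of -0.26 (adjusted p = 0.0508) without TBI rat 45 and sham rat 50. In thalamus neither passed, at -0.11 each, and the interval of Sema3a there ran from -0.99 to 0.78. Neither effect was called different between regions, for Sema3a (0.33, adjusted p = 0.718) or for Sema3e (0.20, adjusted p = 0.435).

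Sema3c (chromosome 4, 14293279 to 14466745), which binds neuropilins and attracts cortical axons in development, had the largest difference between regions. In cortex its lowest, median and highest values were 1201, 1387 and 1647 normalized counts in sham rats and 866, 964 and 1233 in TBI rats, with 5 of the 6 TBI rats below every sham rat. In thalamus they were 201, 240.3 and 327 in sham rats and 242, 287 and 387 in TBI rats, with broad overlap. The log2 change was -0.48 ± 0.09 (adjusted p = 0.00104) in cortex and 0.25 ± 0.12 (adjusted p = 0.135) in thalamus. The difference was 0.73 ± 0.16 (adjusted p = 0.00504), and 0.63 (adjusted p = 0.0673) without the 6 choroid plexus-rich libraries.

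Sema3d (chromosome 4, 19167341 to 19359164) rose in thalamus. Its lowest, median and highest values there were 781, 909 and 1003 normalized counts in sham rats and 1038, 1208 and 1440.3 in TBI rats, with no overlap and a log2 change of 0.45 ± 0.09 (adjusted p = 0.00119). In cortex Sema3d ran from 662 to 912 in sham and from 685 to 1152 in TBI rats, a log2 change of 0.14 (adjusted p = 0.443). The difference between regions, 0.31, did not pass (adjusted p = 0.284). Sema3f, the usual partner of neuropilin-2, and Sema3g, a product of endothelial cells, did not pass in either region. Their log2 changes were 0.08 and -0.03 in cortex and 0.13 and 0.01 in thalamus, and without TBI rat 45 the thalamic values were -0.03 and -0.07.

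**Figure D4:**
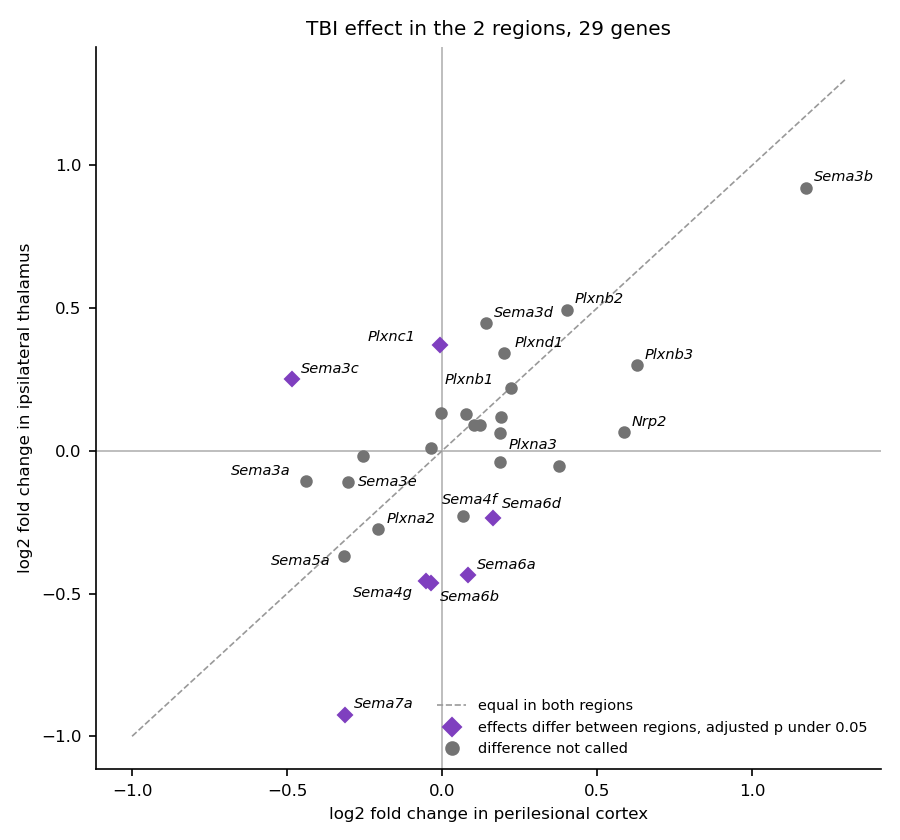
Log2 fold change in perilesional cortex (horizontal axis) against that in ipsilateral thalamus (vertical axis) for the 29 members, with the line of equal effects dashed and the members called in either region named. Purple diamonds mark the 7 members whose effects differed between regions at an adjusted p under 0.05, of which Sema3c and Plxnc1 lie above the line and Sema4g, Sema6a, Sema6b, Sema6d and Sema7a lie below it.

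In all, the effect of TBI differed between the regions for 7 of the 29 members, 24.1%, where 7.26% of 15678 loci did so in either direction. Of these, 2 had the larger value in thalamus, Sema3c and Plxnc1, and 5 had the lower value in thalamus. All 5 were semaphorins of classes 4 to 7. Without the 6 choroid plexus-rich libraries the counts were 1 and 3, where 1.24% and 1.46% of all loci were called, the calls of Sema3c, Sema4g, Sema6b and Sema6d being lost and that of Nrp2 (-0.56, adjusted p = 0.0103) being added.

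The neuropilins are co-receptors for class 3 semaphorins and for vascular endothelial growth factors. Nrp2 (chromosome 9, 69307386 to 69422047) had a lowest, median and highest value of 899, 929 and 1073 normalized counts in sham cortex and 1195, 1390.2 and 1882 in TBI cortex. There was no overlap, and the log2 change was 0.59 ± 0.10 (adjusted p = 0.000526), a rise of 50.1%. In thalamus Nrp2 ran from 1568 to 1833 in sham rats, and 5 TBI rats ran from 1476 to 1587 while TBI rat 45 had 2818. The log2 change there was 0.07 with all rats and -0.08 without rat 45. The difference between regions was -0.52 ± 0.17 (adjusted p = 0.0663) without a block for the rat, -0.52 (adjusted p = 0.0311) with the rat as a block, and -0.59 (adjusted p = 0.000534) without rat 45.

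Nrp1, whose locus carries a second gene identifier, did not pass in either region. Its log2 change was -0.25 ± 0.11 in cortex (adjusted p = 0.0845) and -0.02 in thalamus. TBI rat 45 was the highest of the TBI rats in both regions, and without it the change in cortex was -0.31 with an adjusted p of 0.0472.

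The B plexins are receptors for class 4 and class 5 semaphorins that also pair with the Met and Erbb2 receptor kinases. Plxnb2 (chromosome 7, 129820982 to 129847303, a locus that also carries the name Mir349) had a lowest, median and highest value of 3084, 3383 and 3467 normalized counts in sham cortex and 3644, 4299 and 5360.2 in TBI cortex. In thalamus they were 3233, 3397 and 4316 in sham rats and 4583, 4751 and 7035 in TBI rats. The groups did not overlap in either region. The log2 change of Plxnb2 was 0.40 ± 0.08 (adjusted p = 0.00178) in cortex and 0.49 ± 0.10 (adjusted p = 0.00208) in thalamus. Without TBI rat 45, the highest in both regions, the changes were 0.35 and 0.40, and both kept an adjusted p under 0.05.

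Plxnb3, a receptor for Sema5a that is known from oligodendrocytes, had a lowest, median and highest value of 1084, 1320.0 and 1562 normalized counts in sham cortex and 1618, 2054 and 2307 in TBI cortex. There was no overlap, and the log2 change was 0.63 ± 0.10 (adjusted p = 0.000337). In thalamus Plxnb3 ran from 2864 to 3718 in sham and from 3387 to 4293 in TBI rats, with 5 of the 6 TBI rats above every sham rat and a log2 change of 0.30 ± 0.07 (adjusted p = 0.00599). Plxnb1, the receptor of Sema4d, ran from 5103 to 6189 in sham and from 5805 to 7709 in TBI cortex, and from 5327 to 6563 in sham and from 6049 to 7505 in TBI thalamus. Its log2 change was 0.22 ± 0.07 in cortex (adjusted p = 0.0255) and 0.22 ± 0.06 in thalamus (adjusted p = 0.0128). The call of Plxnb1 in cortex was lost in 6 of the 12 fits that left out 1 rat, with an adjusted p of up to 0.0583. It was also lost without the choroid plexus-rich rats and without the choroid plexus-rich libraries, with an adjusted p of up to 0.103. Of the 3 B plexins, 0 differed between regions in limma or edgeR, and 1, Plxnb3, did at an unadjusted p under 0.05.

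The promoters of the 3 B plexins are shown because these genes were called higher in both regions. The call of Plxnb1 in cortex was lost in the alternatives given above. Each line gives the 250 bases before the annotated gene start, 5′ to 3′ on the gene's strand, from RefSeq on the build GRCr8, which is another build than that of the deposited loci. Capitals mark GGGCGG, the GC box, on either strand. The windows are chr8:118622911-118623160 on the plus strand for Plxnb1, chr7:122137949-122138198 on the minus strand for Plxnb2 and chrX:156646624-156646873 on the plus strand for Plxnb3.
Plxnb1: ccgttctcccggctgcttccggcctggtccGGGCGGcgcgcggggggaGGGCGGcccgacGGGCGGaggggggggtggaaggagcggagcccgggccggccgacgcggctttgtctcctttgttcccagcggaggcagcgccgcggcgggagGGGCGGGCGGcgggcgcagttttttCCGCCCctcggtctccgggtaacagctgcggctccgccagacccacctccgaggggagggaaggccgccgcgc
Plxnb2: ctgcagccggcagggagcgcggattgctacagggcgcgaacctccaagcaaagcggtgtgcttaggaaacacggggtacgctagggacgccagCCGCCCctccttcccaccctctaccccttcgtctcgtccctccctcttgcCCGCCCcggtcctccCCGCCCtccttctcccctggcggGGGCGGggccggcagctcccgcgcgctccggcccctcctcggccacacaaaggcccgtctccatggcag
Plxnb3: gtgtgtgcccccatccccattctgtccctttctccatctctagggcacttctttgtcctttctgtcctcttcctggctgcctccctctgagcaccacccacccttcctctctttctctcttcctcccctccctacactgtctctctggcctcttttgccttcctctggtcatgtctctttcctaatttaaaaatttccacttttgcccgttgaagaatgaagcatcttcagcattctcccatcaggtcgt

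The Plxnb1 window holds 6 GC boxes and is 78.0% G or C, the Plxnb2 window holds 4 and is 71.6% G or C, and the Plxnb3 window holds none and is 50.8% G or C. A GC box was found in 30.5% of 33469 RefSeq promoter windows of this length and in 13 of the 23 members that had one. CCAAT, searched on both strands, was found in 6 of these 23 and in 34% of all windows, and TATAAA in 0 of 23 and 12.9%. None of the 3 B plexin windows holds CCAAT or TATAAA. The deposited loci place Plxnb3 and Plxna3 on chromosome 1, whereas RefSeq places them on chromosome X.

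Of the A plexins, which are the signalling partners of neuropilins and the receptors of class 6 semaphorins, Plxna2 was lower in both regions. Plxna2 ran from 6971 to 7859 normalized counts in sham and from 6068 to 7464 in TBI cortex, with 5 of the 6 TBI rats below every sham rat, and its log2 change was -0.20 ± 0.05 (adjusted p = 0.0106), or -0.22 (adjusted p = 0.0516) without the choroid plexus-rich cortex libraries. In thalamus it ran from 2943 to 4153 in sham and from 2655 to 3301 in TBI rats, a log2 change of -0.27 ± 0.08 (adjusted p = 0.0165), and of -0.26 (adjusted p = 0.0531) without TBI rat 45 and sham rat 50. Plxna3, a partner of neuropilin-2, rose in cortex by 0.19 ± 0.06 (adjusted p = 0.0305), from a sham median of 2029.6 to a TBI median of 2221. That call was lost in 4 of the 12 fits that left out 1 rat, with an adjusted p of up to 0.0745. In thalamus Plxna3 did not pass, at 0.06.

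Plxnd1, the receptor of Sema3e in vessels and neurons, ran from 820.1 to 1131 normalized counts in sham thalamus and from 998 to 1758 in TBI thalamus. Its log2 change was 0.34 ± 0.13 (adjusted p = 0.0473). That call was lost in 8 of the 12 fits that left out 1 rat, TBI rat 45, the highest, among them, with an adjusted p of up to 0.102, and it was also lost without a filter on low values (adjusted p = 0.0593). Leaving out TBI rat 45 and sham rat 50 together also lost the call. In cortex the log2 change of Plxnd1 was 0.20 ± 0.07 (adjusted p = 0.0511).

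Marker genes of several cell types also differed between TBI and sham rats. Microglia markers rose in 9 of 10 cases in cortex and 10 of 10 in thalamus, with summed levels from 12482 to 13503 in sham and from 18128 to 21555 in TBI cortex, and from 13897 to 18348 in sham and from 28169.7 to 36896 in TBI thalamus. Neuron markers fell in 8 of 12 cases in cortex and 11 of 12 in thalamus, with summed levels from 371293 to 392303 in sham and from 269660 to 348001 in TBI cortex, and from 268521 to 331121 in sham and from 174422 to 218769 in TBI thalamus. Fibroblast and meningeal markers rose in 7 of 8 cases in cortex, from 13408 to 19702 in sham and from 20241 to 53025 in TBI rats, and in 0 of 8 in thalamus, with 1 at an unadjusted p under 0.05 and 0 by edgeR. The thalamus identity genes fell in 4 of 5 cases in thalamus, with a median log2 change of -0.54, and rose in 2 of the 4 tested in cortex, with a median of 0.30 and sums from 2097 to 2376 in sham and from 2302 to 3383 in TBI cortex.

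The remaining lists moved less evenly. Astrocyte markers rose in 5 of 8 cases in each region, and 2 fell in cortex. Oligodendrocyte markers rose in 3 of 8 cases in cortex and 1 of 8 in thalamus, their precursors' markers in 4 of 6 and 1 of 6, endothelial markers in 2 of 7 and 4 of 7, and mural cell markers in 2 of 4 and 4 of 4. Choroid plexus markers passed in 0 of 7 cases in either region by limma and edgeR, with 1 in cortex and 0 in thalamus at an unadjusted p under 0.05. T cell markers were abundant enough to test for 3 genes in cortex and 0 in thalamus, and 0 passed, also at an unadjusted p and by edgeR. The part of any of these cell types in the changes of semaphorins, plexins and neuropilins was not tested.

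**Figure D5:**
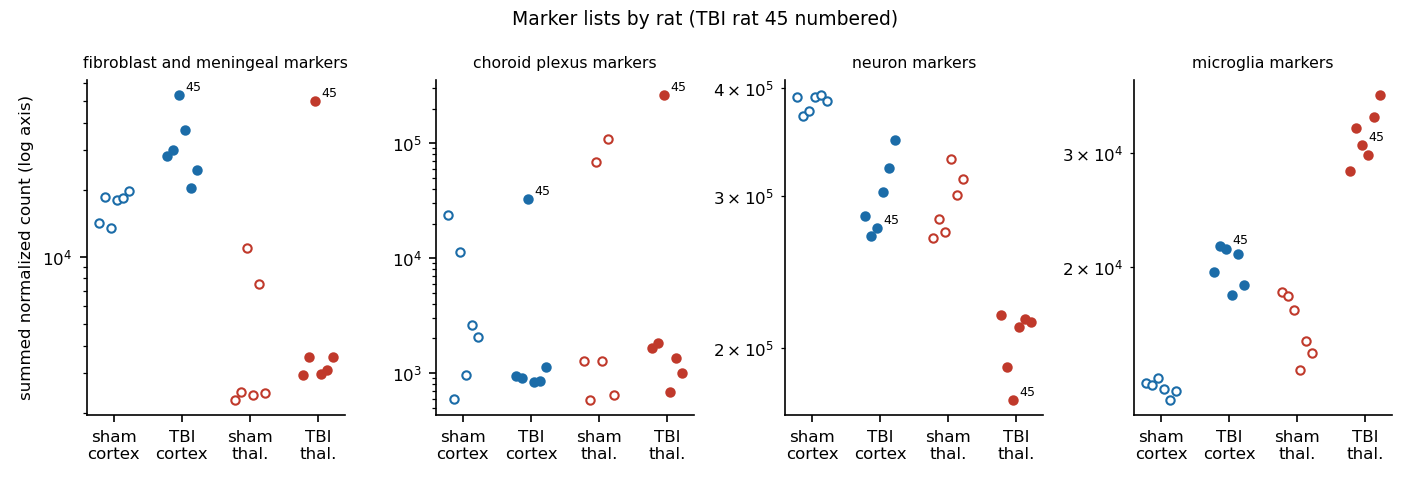
Summed normalized counts (vertical log axis) of 4 marker lists in each library, open circles for sham and filled circles for TBI, with TBI rat 45 numbered. The microglia and neuron sums of TBI and sham rats do not overlap in either region, and rat 45 stands apart in thalamus at 49834 for fibroblast and meningeal markers and 261683 for choroid plexus markers.

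Genes known to work with semaphorins and plexins were also counted, as 7 lists with 50 genes tested. In cortex 9 rose and 10 fell, 18% and 20%, beside 14.3% and 14.9% of all loci. In thalamus 15 rose and 13 fell, 30% and 26%, beside 14.5% and 20.9%. Among co-receptors and partners, 3 of 11 rose and 1 fell in cortex and 6 rose and 1 fell in thalamus. The largest change in both regions was that of Tyrobp, the myeloid adaptor that signals with Trem2 and the plexin A1 and Sema6d complex, at log2 changes of 1.01 ± 0.09 in cortex and 1.43 ± 0.12 in thalamus. Of 4 vascular endothelial growth factor ligands of neuropilins, Pgf rose by 1.27 in cortex and 1.20 in thalamus and Vegfa fell by 0.57 and 0.51 on the log2 scale.

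The remaining lists held genes that rose and genes that fell, except the proteases. Of 3 proteases that cut semaphorins, 1 rose in cortex and 2 rose in thalamus, and 0 fell. Adam17 had the largest change in each region, 0.24 in cortex and 0.29 in thalamus. Of 3 MICAL enzymes, which oxidise actin after plexin activation, Mical1 rose by 0.57 and 1.02, while Mical2 was called lower in both regions. The collapsin response mediators, cytosolic relays of Sema3a, had 1 of 5 higher in cortex, Dpysl3 at 0.30, and 3 of 5 lower in thalamus, led by Crmp1 at -0.47. Of 9 kinases, 1 rose and 5 fell in cortex and 2 rose and 4 fell in thalamus, with Fes, a myeloid-rich kinase that binds plexin A1, at 0.61 and 1.09. Of 15 GTPases and their regulators, 1 rose and 2 fell in cortex, led by Rnd1 at -0.33, and 3 rose and 3 fell in thalamus, led by Rnd3 at 0.47. Rnd1 binds the cytoplasmic part of plexins. Microglia markers rose beside Tyrobp and Fes, and the part of cell numbers was not tested.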

How the data were processed

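Polyadenylated RNA of both brain regions from 6 TBI and 6 sham rats was sequenced as stranded libraries, 1 per rat and region. The submitters' processing notes name TopHat2 2.0.11, Bowtie2 2.2.2 and Cufflinks 2.2.1 with the build Rnor_5.0, while the methods give another assembly for alignment. Coordinates are printed as deposited, and whether they start from 0 or 1 is not stated. The authors deposited a normalized signal per locus and library, the fragment count divided by a size factor, not raw counts. In 23 of 24 libraries an automatic comparison found the low values to be whole multiples of 1 step, and in the other the step was read from the values. All low values were whole at a tolerance of 0.1, and 99.4% to 100.0% of all values. The step gave the depth. A value of 3 fragments equals 2.06 to 3.76 normalized counts, which covers counting error only. All columns of the table were used or are group values, and 0 columns per sample were set aside.

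Groups came from the labels. Each rat is 1 replicate. For each region, limma 3.58.1 under R 4.3.3 (lmFit, eBayes with trend) tested TBI against sham on log2(normalized count + 1), so fold changes are on that scale, for named loci with a mean of at least 10, with Benjamini-Hochberg adjustment over all loci tested and a threshold of 0.05. The difference between regions and the sham regions were contrasts in 1 fit of 24 libraries. The rat numbers in the labels pair cortex and thalamus of 1 animal. The correlation between paired libraries, each taken as its difference from the group mean, was 0.187 in the median rat (range 0.00393 to 0.569) and over 0.1 for 10 of 12. The rat as a block is an alternative. Members, gene lists and marker lists were chosen with earlier results of these data known. Every member is accounted for. Values in all libraries are given by lowest, median and highest in a region for members past the threshold whose groups did not overlap there, and in both regions for those whose effects differed between regions, and the largest change per list is named. Alternatives were TMM scaling, pseudocounts of 0.1 and 5, no filter, a mean of at least 50, edgeR 4.0.16 on the recovered fragments, all libraries in 1 fit, the block, leaving out each rat and, chosen after seeing the data, leaving out TBI rat 45 and sham rat 50 together, or every library with a summed choroid plexus marker level over 10000 (3 in each region). The fits were tested on simulated data. Promoters matched for 23 of 29 members by symbol in RefSeq. A check of the cortex libraries by cortex identity genes, and its change with TBI, is not reported here.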

Additional observations from a re-analysis of the deposited data

Results flagged for a closer look

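In 11 of the 116 groups of 6 rats, 1 rat stood apart from the others by Dixon's test at 95%, which chance alone would do in about 1 group in 20. By this test TBI rat 45 stood apart as the highest in thalamus for 5 members. It had 1480.4 normalized counts of Nrp1, 2818 of Nrp2, 7035 of Plxnb2, 1758 of Plxnd1 and 127 of Sema3a. The next TBI rats had 1135, 1587, 4786, 1207 and 53.5. The thalamus library of TBI rat 45 had the highest choroid plexus and fibroblast marker sums of its group, whose part in these values was not tested. The other rats that stood apart in thalamus were sham rat 38 for Nrp2 at 1833, sham rat 26 for Sema3a at 142, sham rat 55 for Sema6b at 3889.8 and TBI rat 56 for Plxnb3, the lowest at 3387. In cortex TBI rat 24 was the highest for Sema4a at 1895 and for Sema4b at 437.

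The effect of TBI differed between the regions for 7 members by the interaction test of limma, as thalamus minus cortex on the log2 scale. The values were 0.73 for Sema3c, 0.38 for Plxnc1, -0.61 for Sema7a, -0.52 for Sema6a, -0.43 for Sema6b, and -0.40 for both Sema4g and Sema6d.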

How the results depend on the processing

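Of the members called by limma, 6 of 12 in cortex, 11 of 15 in thalamus, 2 of 7 in the difference between regions and 16 of 20 in the sham regions kept their direction and passed the threshold in all 21 alternatives. No called member changed direction. Of the members not called, 6 of 17 in cortex and 3 of 14 in thalamus were called in at least 1 alternative. In the difference between regions 2 of 22 were, and between the sham regions 2 of 9. The counts of members higher and lower ranged over the alternatives from 4 to 9 and from 3 to 7 in cortex, from 6 to 8 and from 6 to 8 in thalamus, and from 8 to 12 and from 8 to 10 between the sham regions. In the difference between regions, leaving out 1 rat gave from 1 to 2 members higher and from 3 to 6 lower. Leaving out TBI rat 45 and sham rat 50 together gave 2 and 3, with 256 and 369 of all loci in place of 427 and 711, from fewer libraries. Leaving out the 6 libraries richest in choroid plexus RNA gave 1 and 3 members there, with 194 and 228 of all loci, and in cortex 4 higher and 3 lower, with 1223 and 939 of all loci in place of 2223 and 2308. With the rat as a block, 2 members were higher and 7 lower, Nrp2 and Sema4f (adjusted p = 0.0351) being added, and the block changed no other call of a member.

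Changes of direction were limited to members that did not pass in the comparison concerned. With TMM scaling they were Sema4a in cortex (0.00101), Nrp1 (0.0300) and Sema6c (0.0107) in thalamus and Sema5b between the sham regions (-0.00327), and with edgeR again Sema5b (-0.0308). When 1 rat was left out, the lowest and highest log2 values that crossed 0 were in cortex Plxnc1 (-0.0508 to 0.0392), Sema3g (-0.0829 to 0.00289) and Sema4a (-0.0670 to 0.0407). They were in thalamus Nrp1 (-0.10 to 0.0166), Nrp2 (-0.0796 to 0.11), Sema3a (-0.39 to 0.19), Sema3f (-0.0261 to 0.23), Sema3g (-0.0747 to 0.0655) and Sema5b (-0.14 to 0.0528). They were in the difference between regions Plxnb1 (-0.0611 to 0.0364), Sema3f (-0.0910 to 0.17), Sema3g (-0.0330 to 0.10), Sema4b (-0.0449 to 0.0514), Sema4c (-0.11 to 0.0470) and Sema5a (-0.16 to 0.00689). They were in the ratio of the sham regions Sema5b (-0.10 to 0.22), Sema6c (-0.0897 to 0.0228) and Sema7a (-0.0868 to 0.0399). Without TBI rat 45 and sham rat 50 they were Nrp2 (-0.0884), Sema3f (-0.0303) and Sema3g (-0.0715) in thalamus, Plxnb1 (0.00926), Sema3a (-0.0502), Sema3f (-0.0336), Sema4b (0.0347) and Sema4c (0.0779) in the difference, and Sema5b (-0.0741) and Sema6c (0.00437) between the sham regions. Without the 6 richest libraries they were Nrp2 (-0.0904), Sema3g (-0.0639) and Sema5b (0.0555) in thalamus, Plxnb1 (0.00574), Sema3f (-0.00427), Sema4b (0.0405) and Sema4c (0.0654) in the difference, and Sema5b (-0.12) and Sema7a (0.0629) between the sham regions. The cause was not tested.

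The values are not per length, so they do not rank the levels of different genes. The lowest value of any member was 24 fragments. The groups hold 6 rats of a selected subset at 1 time, and RNA says nothing on protein, cleavage or binding. In bulk tissue the cell of origin of each member is not measured.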
